A study of Homo sapiens with 6 samples.

Results

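The death receptors and TNF superfamily genes described here were chosen by symbol from the expression table of SW480 cells treated with the mitochondrial fluorescent probe MPM-1 or with its solvent. The list holds 10 genes, of which 9 had a row among the 12982 genes of the table. These were the TRAIL receptors TNFRSF10A, TNFRSF10B and TNFRSF10D, the receptors FAS, TNFRSF1A, TNFRSF21, TNFRSF12A and LTBR, and the ligand LTB. The TRAIL ligand itself, TNFSF10, had no row and was not analysed here. SW480 is an established human colorectal adenocarcinoma line, labelled WT for genotype, and both groups were grown in DMEM with serum. DMSO or MPM-1 (named WT4 in the labels) was given for 24 h, with 3 libraries per group and 6 in all. The dose of MPM-1 in this experiment is not given in the sources used here, nor is it stated whether the libraries came from separate cultures, so p-values measure the spread between these libraries only.

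TNF superfamily ligands act on receptors at the cell surface. Receptors with a cytoplasmic death domain recruit adaptor proteins such as FADD, which bring caspase-8 into an active complex and can start apoptosis from outside the cell. Other receptors of the family lack a death domain and recruit TRAF proteins, which lead to NF-kB signaling and to survival or inflammatory programs. In colon epithelium the lymphotoxin ligands come mainly from lymphocytes, while the receptors are carried by the epithelial cells.

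The counts summed to between 31733667 and 40269820 per library. Of 10 markers of colorectal epithelium all 10 were measured. Their summed level was 4830 to 5553 FPKM in DMSO and 6737 to 7201 FPKM after MPM-1. FPKM is the authors' deposited level, scaled for transcript length and library size. Of these, 4 rose and 5 fell, CDX2 (log2 fold change -2.20) and KRT20 (-2.03) the most. Of 7 lymphocyte markers only CD79A was measured, at 1.41 to 1.48 FPKM in DMSO and 2.19 to 2.88 FPKM after MPM-1. CD79A rose (log2 fold change 1.01, adjusted p = 0.00586), and the other markers of this list, PTPRC and CD3E among them, had no row. Of 4 myeloid markers 2 were measured, at a summed 36.9 to 50.4 FPKM in DMSO and 70.8 to 74.7 FPKM after MPM-1: CD68 rose (1.08) and CD14 fell (-1.34). Of 4 fibroblast markers COL1A1 was measured and fell (-2.07), from 0.391 to 0.510 FPKM in DMSO to 0.0255 to 0.163 FPKM after MPM-1, and of 3 endothelial markers 0 were measured. The part of these markers in the results below was not tested. CPM values below are counts scaled to a common library size with edgeR's TMM factors. A gene was said to rise or fall when the quasi-likelihood test of edgeR, adjusted over all 12982 genes by the method of Benjamini and Hochberg, gave a value under 0.05.

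All receptors but TNFRSF10A rose after MPM-1, and the ligand LTB fell. By this rule 7 of the 9 measured genes rose, against 27.7% of all genes tested, and 1 fell, against 28.8% of all genes. Their median log2 fold change was 0.51, beside -0.026 for all genes. Under a stricter rule (adjusted p under 0.01 and a change of 2-fold or more), 1 rose (TNFRSF10B; 5.58% of all genes) and 1 fell (LTB; 8.75%). On the CPM scale every MPM-1 library lay above every DMSO library in 8 of the 9 genes, which was so for 31% of all genes, and below in 1, which was so for 33.3%. On the FPKM scale the groups overlapped in 2 of the 9, TNFRSF10A and TNFRSF1A. In bulk RNA, fewer cells with a transcript and less of it per cell cannot be told apart.

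**Figure D1:**
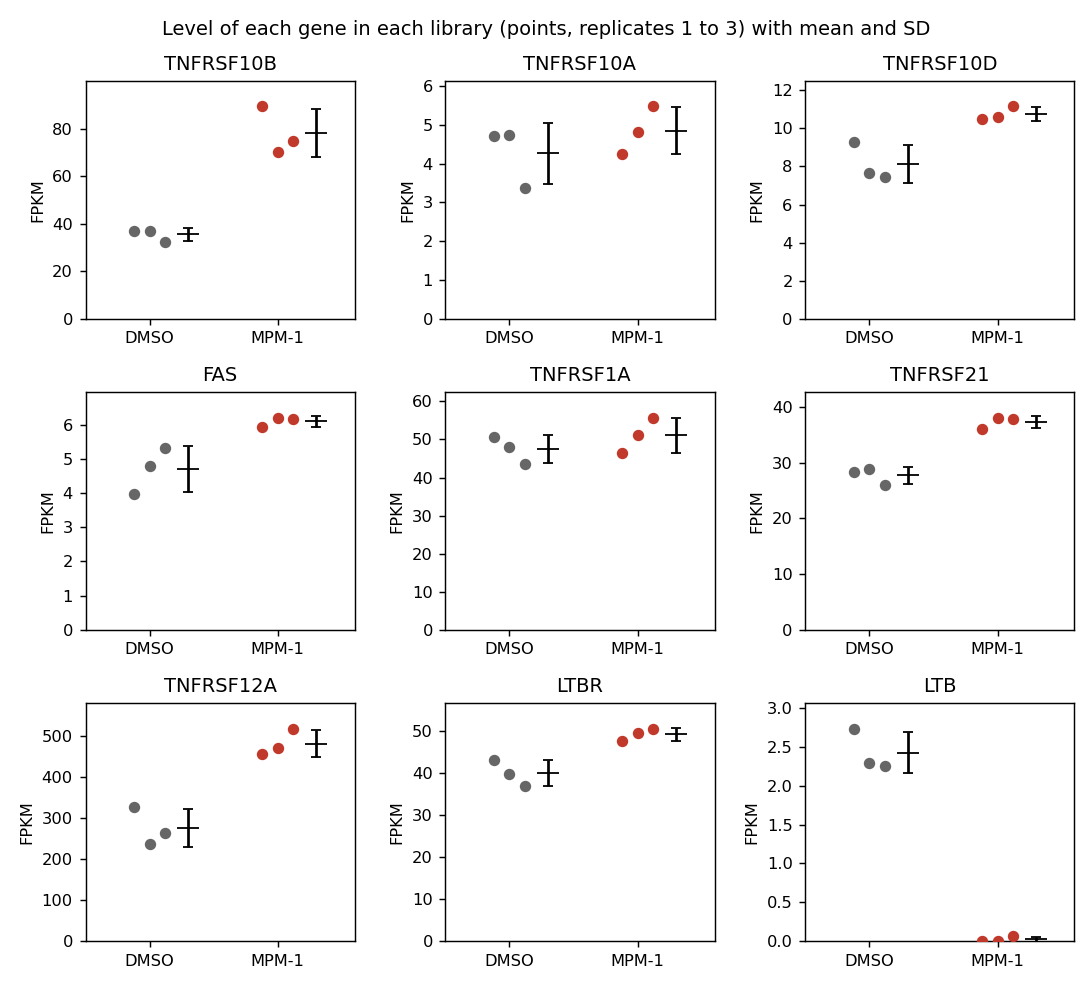
FPKM (vertical axes, each starting at 0) of the 9 measured genes in each of the 3 DMSO (grey) and 3 MPM-1 (red) libraries, with the mean and SD as black bars. TNFRSF10B lay at 32.5 to 37.0 FPKM in DMSO and at 69.9 to 89.3 FPKM after MPM-1, the groups overlapped in TNFRSF10A and TNFRSF1A, and LTB was near 0 after MPM-1.

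TNFRSF10B, which encodes the TRAIL death receptor DR5, had the largest rise. It measured 151, 147 and 128 CPM in the DMSO libraries and 404, 306 and 333 CPM in the MPM-1 libraries. The lowest treated library was thus above the highest control by a wide margin, and the treated libraries also differed more among themselves. The log2 fold change was 1.29 ± 0.11 (SE, 95% interval 1.04 to 1.54, adjusted p = 1.68e-05), and leaving out single libraries gave 1.18 to 1.40. Of all genes tested, 3.64% had a larger rise. The gene lies on chromosome 8 at 23020133 to 23069179 (GENCODE release 29, GRCh38), on the minus strand.

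TNFRSF10A encodes DR4, the other TRAIL receptor with a death domain. It was measured at 12.86, 12.25 and 8.71 CPM in DMSO and at 12.87, 13.98 and 16.23 CPM after MPM-1. The highest DMSO library and the lowest MPM-1 library were almost level, and on the FPKM scale the groups overlapped, at 3.36 to 4.73 and 4.26 to 5.48. The log2 fold change was 0.35 (95% interval -0.048 to 0.75, adjusted p = 0.119), an interval that includes both 0 and the rises of FAS, LTBR, TNFRSF10D and TNFRSF21. It did not pass in any of the 6 fits with a library left out, where it ranged from 0.20 to 0.45.

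TNFRSF10D encodes DcR2, a TRAIL receptor with a truncated death domain that binds the ligand without passing on the death signal. Its level was 33.0, 26.2 and 25.6 CPM in DMSO and 41.3, 40.03 and 43.1 CPM after MPM-1. The decoy receptor therefore rose too, by 0.56 ± 0.11 on the log2 scale (SE, adjusted p = 0.00207), with DMSO replicate 1 the nearest to the treated libraries. TNFRSF10C, a further decoy receptor for TRAIL outside the list of 10, gave -0.59 at 1.07 to 2.31 CPM and did not pass (adjusted p = 0.145). These receptor genes are related in sequence and lie side by side, and how the counting treated reads that match several of them is not given in the sources used here.

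Since these receptors share a ligand, their levels were compared per transcript length. The FPKM ratio of TNFRSF10B to TNFRSF10A was 7.82, 7.82 and 9.65 in the DMSO libraries and 21.0, 14.5 and 13.6 in the MPM-1 libraries. The groups did not overlap, and the mean log2 ratio was higher by 0.94 (standard error 0.22) after MPM-1. The ratio of TNFRSF10A plus TNFRSF10B to the decoy TNFRSF10D was 4.48, 5.46 and 4.80 in DMSO and 8.90, 7.06 and 7.18 after MPM-1, a log2 difference of 0.65 (standard error 0.14). For each ratio the exact two-sided permutation test over the 6 libraries gave p = 0.1, the smallest value this test can give with 3 libraries against 3, so it could not have passed 0.05 whatever the ratios were. TNFRSF10B made up 74.1% ± 1.43 of the summed FPKM of the 3 receptors in DMSO and 83.2% ± 2.28 after MPM-1 (SD, n = 3 libraries each). The share of TNFRSF10D was 17.0% ± 1.40 and 11.6% ± 1.28, and that of TNFRSF10A 8.87% ± 0.970 and 5.25% ± 1.01.

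**Figure D2:**
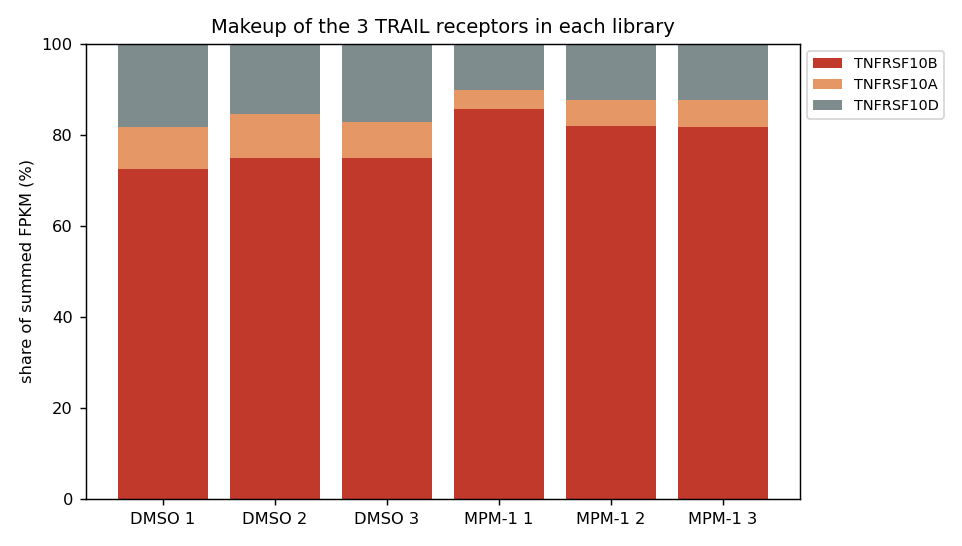
Share of TNFRSF10B (red), TNFRSF10A (orange) and TNFRSF10D (grey) in the summed FPKM of these 3 TRAIL receptors, in percent, with 1 bar per library. TNFRSF10B took 72.5% to 75.0% in the DMSO libraries and 81.8% to 85.8% in the MPM-1 libraries.

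Among the other death domain receptors, TNFRSF21 had the smallest standard error. TNFRSF21, or DR6, is a death receptor best known from neurons and lymphocytes. It measured 102, 100 and 90.7 CPM in DMSO and 144, 146 and 149 CPM after MPM-1. The treated libraries lay within a narrow band well above the controls, and the difference was 0.58 ± 0.075 on the log2 scale (SE, adjusted p = 0.000159).

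FAS encodes the receptor of Fas ligand. Its values were 10.1, 10.8 and 12.3 CPM in DMSO and 16.3, 14.4 and 15.3 CPM after MPM-1, with no overlap. It rose by 0.47 ± 0.14 on the log2 scale (SE, adjusted p = 0.0149), which passed in all 6 fits with a library left out (adjusted p from 0.0168 to 0.0486). With scaling by library size alone it was 0.32 and did not pass (adjusted p = 0.0804). Under that scaling the median over all genes was -0.18 in place of -0.026.

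TNFRSF1A encodes TNFR1, the main receptor of TNF, which can signal either to NF-kB or to cell death. It stood at 107, 99.1 and 90.3 CPM in DMSO and at 109, 117 and 130 CPM after MPM-1, so the nearest libraries of the groups were close. The rise of 0.27 ± 0.093 on the log2 scale (SE, adjusted p = 0.0327) was the smallest among the genes that passed. It no longer passed without DMSO replicate 2 (0.27, adjusted p = 0.0815), without DMSO replicate 3 (0.21, adjusted p = 0.124) or without MPM-1 replicate 3 (0.21, adjusted p = 0.111). On the FPKM scale it was 0.11 with limma (adjusted p = 0.353), and with library size alone 0.12 (adjusted p = 0.287).

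TNFRSF12A encodes Fn14, the receptor of the cytokine TWEAK, a small receptor without a death domain that binds TRAF proteins. It had the highest level of the 9 genes in every library. The CPM values were 335, 233 and 261 in DMSO and 506, 512 and 573 after MPM-1. The controls were spread more widely than the treated libraries, with DMSO replicate 1 the highest of them. The log2 difference was 0.94 ± 0.13 (SE, adjusted p = 0.000204), ranging from 0.83 without DMSO replicate 2 to 1.10 without DMSO replicate 1. The gene lies on chromosome 16 at 3018445 to 3022383. The transcript of TWEAK, TNFSF12, went the other way, from 27.4, 25.4 and 23.1 CPM in DMSO to 15.8, 15.4 and 16.6 CPM after MPM-1 (log2 fold change -0.67, adjusted p = 0.000619).

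**Figure D3:**
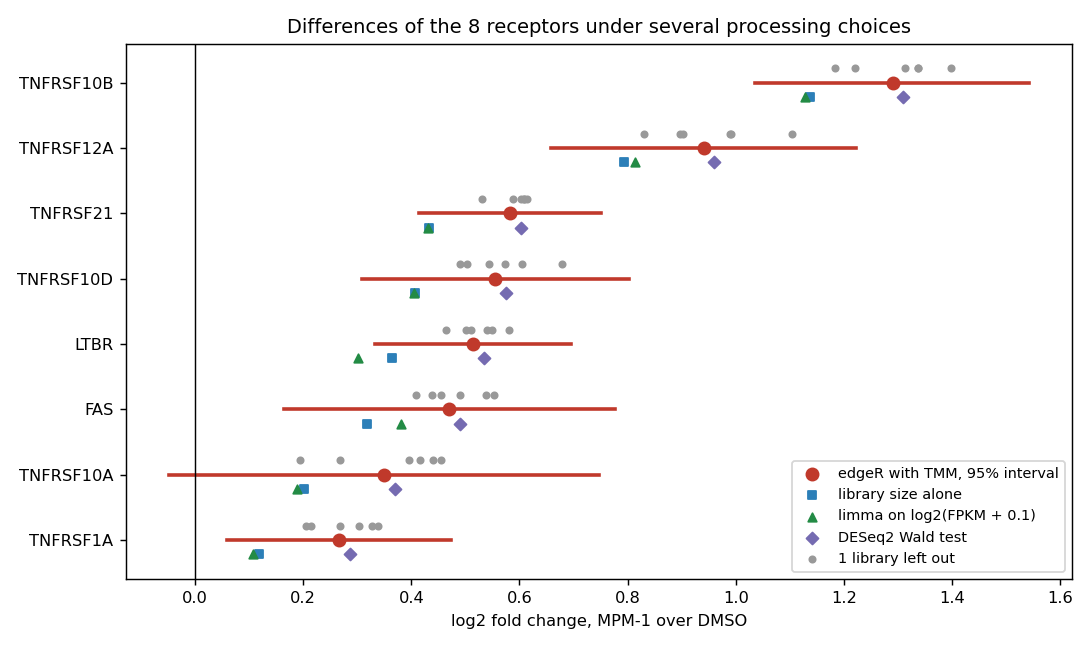
Log2 fold change of MPM-1 over DMSO (horizontal axis) for the 8 receptors, with the edgeR estimate and its 95% interval in red, the values with 1 library left out as grey points above it, and other tests or scalings as coloured symbols below it. Each estimate is above 0, and the interval of TNFRSF10A, from -0.048 to 0.75, includes 0.

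The ligand LTB and its receptor LTBR moved in opposite directions. LTB encodes lymphotoxin beta, a membrane protein that joins lymphotoxin alpha to form the ligand of LTBR. LTBR lacks a death domain and signals through TRAF proteins to the noncanonical NF-kB pathway.

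For LTB, 82, 83 and 79 reads were counted with DMSO, and 0, 0 and 2 in MPM-1 replicates 1, 2 and 3. The control libraries were nearly level, at 1.92 to 2.49 CPM, and the transcript was almost absent after treatment. Summed per group this was 244 counts against 2, a 99.7-fold lower level after MPM-1, with a 95% counting interval of 27.3 to 828. Without MPM-1 replicate 3, which held both remaining counts, it was at least 42.9-fold lower when 3 counts over the group are taken as the limit. The interval and limit take in counting error alone and leave out the spread between libraries, since the counts were summed per group. The reads also carry no molecular identifiers. In the edgeR test across all genes, which keeps the libraries apart, the log2 fold change was -6.44 (95% interval -7.92 to -4.96, adjusted p = 4.10e-05). LTB passed in all 6 fits with a library left out, where it ranged from -9.23 to -5.92. At a mean count of 41 it was the lowest of the 9 genes. Markers of other cell types moved between the same groups, as given above (CD79A and CD68 higher, CD14 and COL1A1 lower), and their part in the LTB value was not tested.

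LTBR measured 90.4, 81.2 and 76.9 CPM in DMSO and 117, 117 and 121 CPM after MPM-1. Its libraries did not overlap, and it rose by 0.51 ± 0.081 on the log2 scale (SE, adjusted p = 0.000524). It is on chromosome 12 at 6375045 to 6391571, and LTB on chromosome 6 at 31580525 to 31582522.

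Sequence before the start site of this ligand and receptor pair is shown because the 2 transcripts changed in opposite directions. They come from the RefSeq promoter table on GRCh38.p14, in which 6 of the 10 listed genes were matched (TNFSF10, LTB, LTBR, TNFRSF21, FAS and TNFRSF1A). Motifs were searched on both strands of the 250 bases before each RefSeq start, and bases that GENCODE annotates as untranslated are left out of the print, which leaves 248 bases for LTB and 121 for LTBR. The capitals mark the letters GGNNTTTCC of NF-kB (read as its reverse complement here) in the first and the SP1 box GGGCGG (likewise) in the second.
LTB: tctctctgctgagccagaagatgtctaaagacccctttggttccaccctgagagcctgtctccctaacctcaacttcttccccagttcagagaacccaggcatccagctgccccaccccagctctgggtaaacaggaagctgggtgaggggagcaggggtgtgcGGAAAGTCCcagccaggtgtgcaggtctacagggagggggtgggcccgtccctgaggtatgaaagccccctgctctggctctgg
LTBR: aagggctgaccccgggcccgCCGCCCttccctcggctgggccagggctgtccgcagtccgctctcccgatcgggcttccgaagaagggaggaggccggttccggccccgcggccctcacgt
These are chr6:31582428-31582675 on the minus strand and chr12:6383912-6384032 on the plus strand. The NF-kB letters lie at -86 to -78 from the start site of LTB, and 5.48% of all 35116 promoter windows hold them. The 250 bases of LTBR held 4 matches to the SP1 box, 1 of them in the part shown, and 42.6% of all windows hold this box. Neither sequence held the letters TGATGNAA, which CHOP and ATF4 bind and which are in 3.14% of all windows. The AP-1 letters TGANTCA, present in 6.57% of windows, were also in neither, and the same was true of the CRE letters TGACGTCA, present in 1.65%. The TATA box, searched as TATAAA and present in 10.7% of windows, was not found in either one. The RefSeq starts of both genes lie inside the gene spans that GENCODE gives, which take in 97 of the 250 bases for LTB and all 250 for LTBR. The NF-kB letters of LTB are within that span, in an exon of a GENCODE transcript. A match describes the letters and shows no binding.

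In DMSO the levels per transcript length ran from TNFRSF12A (276 ± 46.6 FPKM) through TNFRSF1A (47.4 ± 3.69), LTBR (39.9 ± 3.07), TNFRSF10B (35.5 ± 2.61), TNFRSF21 (27.7 ± 1.54), TNFRSF10D (8.13 ± 1.01), FAS (4.70 ± 0.671) and TNFRSF10A (4.27 ± 0.789) to LTB (2.43 ± 0.266; SD, n = 3 libraries each). The libraries of LTBR and TNFRSF10B overlapped in this order, as did those of FAS and TNFRSF10A, and the other neighbours did not. After MPM-1, TNFRSF12A was at 482 ± 32.4 FPKM and TNFRSF10B had moved from place 4 to place 2, at 77.9 ± 10.1 FPKM. TNFRSF1A (51.1 ± 4.64) and LTBR (49.2 ± 1.53) followed and overlapped each other. The rest kept their order, with TNFRSF21 at 37.4 ± 1.10, TNFRSF10D at 10.8 ± 0.349, FAS at 6.11 ± 0.157, TNFRSF10A at 4.85 ± 0.608 and LTB at 0.0202 ± 0.0350 FPKM.

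Several receptor genes share exon sequence with a gene on the opposite strand, and it is not stated in the sources used here whether counting used strand. TNFRSF10B shares 67 bases, 1.30% of its exon bases, with RHOBTB2, which fell (log2 fold change -2.38). LTBR shares 6.72% with SCNN1A, which fell as well (-0.69). FAS shares 8.93% with ACTA2 (-0.17, adjusted p = 0.308) and TNFRSF12A 2.16% with CLDN6 (-0.41, adjusted p = 0.101). None of these partners rose. Other annotated genes overlap TNFRSF10A (TNFRSF10A-AS1, RPL23AP55 and AC100861.1), TNFRSF10B (AC107959.2) and FAS (RF02116, on the same strand), and had no row. The part of shared reads in these values was not tested.

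By Pearson correlation of log2 CPM over the 6 libraries, with 12379 genes compared, the genes most like TNFRSF10B included ADAM9 (0.9995), GNB5 (0.9993), ALDH1L1 (0.9991) and UBE2E2 (0.9987). The libraries form 2 treatment groups, so these values mostly describe a shared difference between treatments. Among the 9 genes, none with a mean of at least 50 counts fell, so no such comparison was made for a falling gene.

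Other genes of the pathway were then read from the same test, in 6 lists that together held 63 measured genes. Of these, 23 rose, 13 fell and 27 did not pass, where 27.7% of all genes rose and 28.8% fell. These shares are also the ones to set beside the counts of each list below. The split was 16 higher and 19 lower with scaling by library size alone, and 12 higher and 16 lower with limma on FPKM. Over all genes the split was 3596 higher and 3740 lower, and 2589 and 4871 with library size alone. With limma on log2(FPKM + 0.1) it was 2345 and 4042 of 11497 genes. The median log2 fold change of the 63 genes was 0.20, beside -0.026 for all genes.

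The receptor-proximal complex joins the death receptors to the caspases. Of 19 measured genes 6 rose, 4 fell and 9 did not pass, with a median of 0.14. The number that rose was 3 with limma on FPKM, a fit that left out BIRC3 for averaging under 1 FPKM. FADD, the adaptor that links the death domain to caspase-8, fell from 59.2, 54.7 and 57.4 CPM to 6.60, 29.1 and 13.0 CPM. The controls were level, while the treated libraries differed widely and were all lower. The log2 difference was -1.82 ± 0.40 (SE, adjusted p = 0.00357), reaching -2.51 without MPM-1 replicate 2 and -1.43 without MPM-1 replicate 1. RIPK1, a kinase of the TNFR1 complex, fell by 0.62 on the log2 scale (adjusted p = 0.00891).

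CASP8, the initiator caspase, fell by 0.60 on the log2 scale (adjusted p = 0.0181). Without DMSO replicate 2 its value was -0.47 and did not pass (adjusted p = 0.0807), and without MPM-1 replicate 1 it was -0.40 and passed. BID, which carries the caspase-8 signal to mitochondria, was the other gene that fell (-0.48). CFLAR, the inhibitor of caspase-8 also known as cFLIP, rose from 49.2, 40.5 and 40.4 CPM to 64.4, 55.0 and 58.7 CPM (0.45, adjusted p = 0.00426). RBCK1, a subunit of the linear ubiquitin ligase, had the largest rise of this list, from 152, 132 and 137 CPM to 415, 459 and 425 CPM (1.62, adjusted p = 7.75e-07). BIRC3, an inhibitor of apoptosis that is also an NF-kB target, rose by 1.17, and FAF1, a FAS-associated factor, by 0.66 on the log2 scale. The remaining rises of this list were in SHARPIN (0.38, adjusted p = 0.0023) and DIABLO (0.30, adjusted p = 0.0289).

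In the rest of the receptor and ligand family, 4 of 18 measured genes rose, 5 fell and 9 did not pass, with a median of -0.26. With library size alone 8 of them fell, and with limma on FPKM 2 rose. The limma fit left out TNFRSF9, TNFRSF19 and TNFRSF11A, which average under 1 FPKM. TNFRSF9 (4-1BB), a costimulatory receptor, rose from 1.00, 0.903 and 0.728 CPM to 6.33, 7.51 and 6.97 CPM (log2 fold change 2.98, adjusted p = 8.77e-06). Its ligand TNFSF9 also rose, from 71.4, 57.9 and 61.4 CPM to 149, 90.7 and 126 CPM (0.94). TNFSF15, also known as TL1A, rose by 0.79, or by 0.55 without MPM-1 replicate 2. It did not pass with limma on log2(FPKM + 0.1) (0.59, adjusted p = 0.0546) or on log2(FPKM + 1) (0.474, adjusted p = 0.0540). RELT, a further receptor of the family, rose by 0.75. The largest falls were in TNFRSF19 (-1.42), in TNFRSF6B (-1.38), a soluble decoy receptor for Fas ligand, and in TNFRSF11A (-1.17), the receptor RANK. TNFRSF18 (-0.92) fell, as did TNFSF12.

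Of the 7 TRAF adaptors 1 rose, 1 fell and 5 did not pass, against 0 higher and 3 lower with library size alone or with limma on FPKM. TRAF4 rose by 0.35 on the log2 scale and no longer passed without DMSO replicate 2 (0.31), DMSO replicate 3 (0.28), MPM-1 replicate 1 (0.31) or MPM-1 replicate 3 (0.35), with adjusted p from 0.0522 to 0.0788. TRAF3, which holds back noncanonical NF-kB signaling, fell by 0.32 and did not pass without DMSO replicate 2 (-0.27), MPM-1 replicate 2 (-0.25) or MPM-1 replicate 3 (-0.33), with adjusted p from 0.0598 to 0.102.

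In the noncanonical NF-kB list, which lies downstream of LTBR and TNFRSF12A, 2 of 4 genes rose and none fell. RELB went from 19.3, 13.7 and 13.7 CPM to 51.0, 38.0 and 43.4 CPM (log2 fold change 1.51, adjusted p = 4.77e-05), and NFKB2 from 67.8, 58.9 and 52.8 CPM to 118, 101 and 105 CPM (0.86, adjusted p = 0.000121). MAP3K14, the kinase NIK, gave 0.36 (adjusted p = 0.0550) and CHUK 0.063.

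Genes of shedding and O-glycosylation, which act on receptors and ligands at the cell surface, were split, with 3 higher and 2 lower of 6 measured. With library size alone, and likewise with limma on FPKM, 1 was higher. Without DMSO replicate 2, MPM-1 replicate 1 or MPM-1 replicate 2, 1 was lower. RHBDF1 and RHBDF2 encode partners of the sheddase ADAM17, which itself gave 0.35 and did not pass without DMSO replicate 1. RHBDF1 rose (0.71, adjusted p = 0.000433) and RHBDF2 fell (-0.42, adjusted p = 0.00565). The sheddase ADAM10 (-0.33) and the glycosyltransferase GALNT3 (0.43) each passed in 3 of 6 fits with a library left out.

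Among transcription factors known to act on death receptor genes, 7 of 9 rose and 1 fell. The number that rose was 4 without DMSO replicate 2, 4 without DMSO replicate 3, 4 with library size alone and 4 with limma on FPKM. DDIT3, or CHOP, a stress factor known for acting on the TNFRSF10B gene, went from 44.5, 35.1 and 41.6 CPM to 225, 398 and 333 CPM (log2 fold change 2.98, adjusted p = 3.06e-06). Each treated library was far above the controls. ATF3 gave 3.08, FOXO3 1.52 and ATF4 1.04. The remaining rises were smaller, in RELA (0.373, adjusted p = 0.0152), SP1 (0.225, adjusted p = 0.0367) and YY1 (0.224, adjusted p = 0.0458). NFKB1 was the gene that fell (-0.37, adjusted p = 0.0303), and it did not pass without DMSO replicate 2 (-0.28) or without MPM-1 replicate 1, 2 or 3 (-0.36, -0.33 and -0.38).

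**Figure D4:**
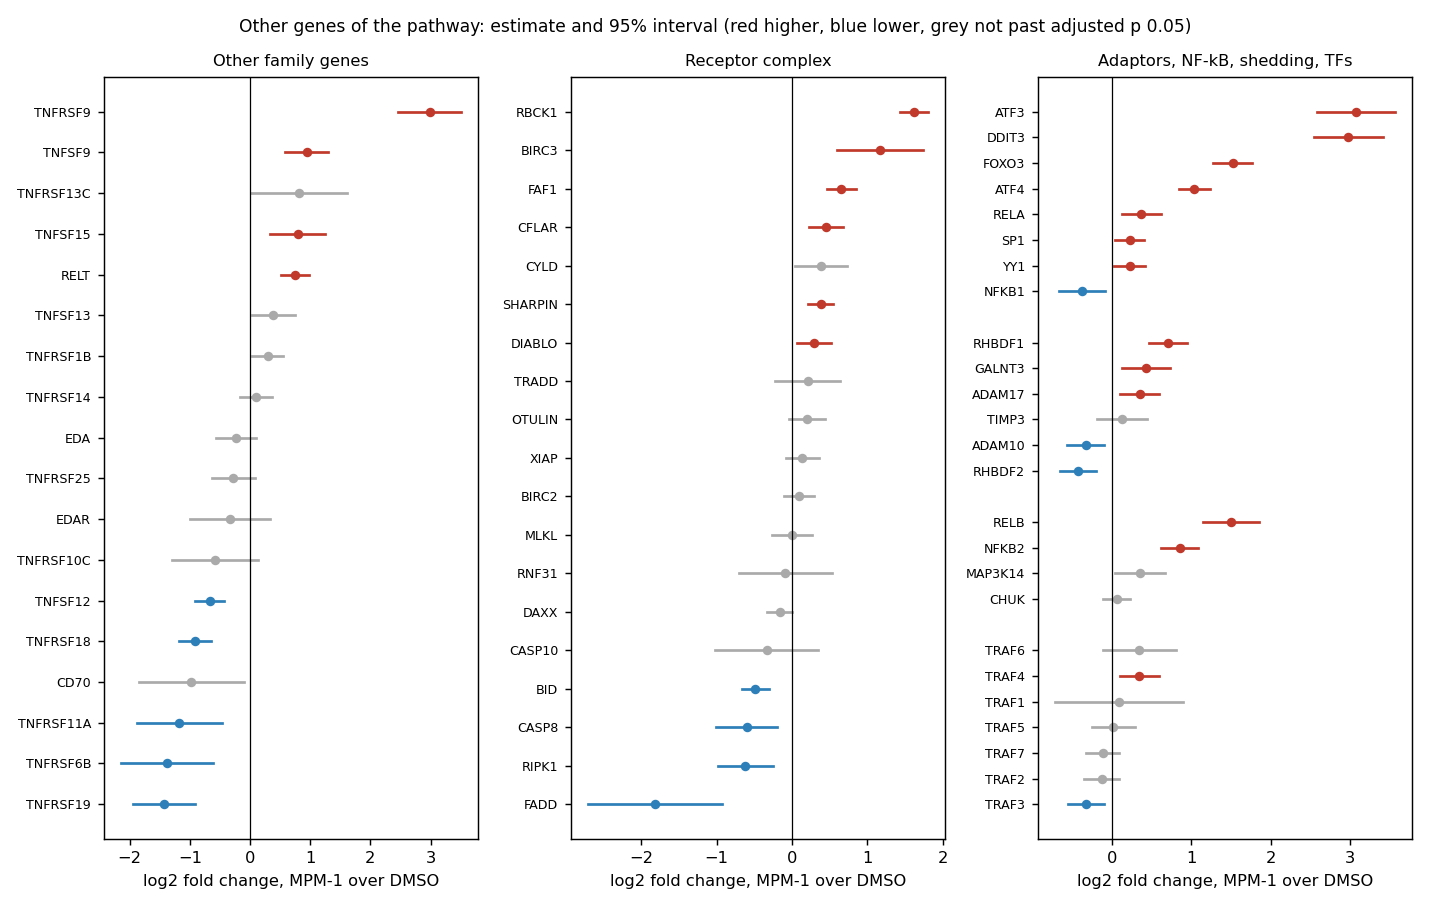
Log2 fold change of MPM-1 over DMSO with its 95% interval (horizontal axes) for the measured other genes of the pathway, by list, with 1 transcription factor not drawn, and with genes that rose in red, genes that fell in blue and the rest in grey. FADD (-1.82) is the lowest and RBCK1 (1.62) the highest of the receptor complex, TNFRSF9 (2.98) stands above the other family genes, and DDIT3 and ATF3 lead the transcription factors.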

How the data were processed

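RNA sequencing of 6 SW480 libraries, 3 with DMSO and 3 with MPM-1 for 24 h, was analysed from 1 table of the whole experiment. The authors deposited whole-number counts per gene without normalization, and the FPKM of each gene, scaled by them for transcript length and library size. The FPKM did not always follow the counts. FAS was higher in MPM-1 replicate 1 than in replicate 2 by CPM (16.3 and 14.4) but lower by FPKM (5.93 and 6.21). How the length was set in each library is not given in the sources used here. Its part in the FPKM ratios, level order and limma fits was not tested. The deposited FDR (an adjusted p-value) and log2 fold change columns hold the authors' own comparison and were not used. Library preparation used an mRNA kit. Per the submitters' processing notes, HISAT2 and DESeq2 were used and the build was mm10, while the identifiers are human Ensembl genes. The counter, annotation, strand setting and filter are not given in the sources used here. The smallest total of a gene in the table was 115 counts over the 6 libraries.

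Groups and replicate numbers were taken from the sample titles. Counts were tested with edgeR 4.0.16 (R 4.3.3), using TMM scaling, the quasi-likelihood test, no covariates and Benjamini-Hochberg adjustment over all 12982 genes. The TMM factors differed by group, at 1.03 to 1.07 in DMSO and 0.93 to 0.97 in MPM-1. The filter of edgeR on low counts removed no gene. Standard errors were taken from the test statistic. TRAIL receptor ratios were tested by exact permutation of libraries. The methods were tested on simulated data. The libraries of a group differed beyond sampling noise (chi-square per gene from 15.4 to 33.2), and each was counted as a replicate. Counts of 0 were read with a limit of 3 counts, or 0.0695 to 0.0985 CPM.

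The members and gene lists were chosen with earlier results of these data known, and no test over a list was made. Named genes were all members and up to 3 rises and 3 falls per list of other genes, of which the text describes most. RELT, CFLAR, BID, SHARPIN, DIABLO, TNFSF12, TNFRSF18, TNFRSF10C, ATF4, RELA, SP1, YY1, MAP3K14, CHUK and the overlapping genes were added after their values were seen. Values of 1 transcription factor are not reported here. Alternatives were DESeq2 1.42.0 (size factors or test), library size alone, no filter or a mean of at least 50 counts, a replicate block, single libraries left out, and limma 3.58.1 on log2(FPKM + 0.1) or log2(FPKM + 1) for genes averaging 1 FPKM or more, with all members kept. Changes of low genes were smaller with log2(FPKM + 1) than with log2(FPKM + 0.1), as in TNFRSF6B (-0.87 and -1.46, beside -1.38 in the main fit).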

Additional observations from a re-analysis of the deposited data

How the results depend on the processing

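No member changed direction under the alternatives tried. Of 125 values of members under an alternative, 117 stayed on the same side of the threshold and 8 no longer passed, 7 of them of TNFRSF1A and 1 of FAS. With each library left out in turn, 6 to 7 members were higher and 1 lower. With library size alone, 5 members were higher and 1 lower. The stricter rule (adjusted p under 0.01, change of 2-fold or more) left 1 member higher and 1 lower. Among the 63 other genes of the pathway it left 8 higher and 4 lower, beside 5.58% and 8.75% of all genes. A mean of at least 50 counts removed LTB from the test, so that 0 members were lower. With limma on log2(FPKM + 0.1) and on log2(FPKM + 1), 12 of the other genes of the pathway were higher in each case, in place of 23. These fits left out other genes averaging under 1 FPKM, among them TNFRSF9 and BIRC3, which rose, and TNFRSF19 and TNFRSF11A, which fell. The median log2 fold change over all genes in these fits was -0.15 and -0.13, beside -0.026 in the main fit. The part of each in the lower count was not tested. The LTB value depended on the pseudocount, at -4.43 and -1.75 in the limma fits, beside -6.44 in the main fit.

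Replicate numbers are shared between the groups, but same-numbered libraries did not deviate together (correlations of 0.021, 0.11 and -0.074). With 3 libraries per group this cannot show whether they shared a culture or handling. With the replicate block, 6 members were higher and 1 lower, and TNFRSF1A was at 0.27 (adjusted p = 0.056 from edgeR). The block lowered the standard error of TNFRSF10B (0.113 to 0.096) and TNFRSF12A (0.126 to 0.117). It raised that of the other measured members, as in TNFRSF1A (0.093 to 0.103). Genes near the floor such as LTB, at a mean of 41 counts, are limited by depth.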
